A study of Paralichthys olivaceus with 6 samples.

Results

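Genes for vesicular glutamate transporters were followed across the 6 hindbrain RNA-seq libraries of olive flounder (Paralichthys olivaceus), a flatfish kept in aquaculture. The members were chosen by identifier and are 3 of the 24395 genes in the count tables. LOC109625187 is slc17a6b, LOC109641466 is slc17a7a and LOC109624247 is slc17a8, by the gene numbers of the RefSeq annotation of assembly ASM2471397v2. The study set bold fish beside shy fish, chosen by a behavioural selection, and oxygen metabolism is named in its title. All fish came from 1 stock with a body weight of 101.06 ± 6.39 g (SD) and were kept at 18 °C. No strain, sex, age or drug treatment is given in the labels used here. For all 6 libraries the title and source name give one personality and the personality characteristic gives the other. Groups are therefore called titled bold and titled shy, with 3 libraries each, and the directions given here would be the opposite if the characteristic were right. RNA from 6 individuals is mentioned without saying how they were spread over the libraries, so the tests see no more than the spread among these libraries.

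Vesicular glutamate transporters sit in the membrane of synaptic vesicles and load them with glutamate, the main excitatory transmitter of the vertebrate brain. They draw on the electrochemical gradient built by the vesicular proton pump, and a neuron that lacks them cannot release glutamate from vesicles. In mammals, SLC17A6 serves most glutamatergic neurons of the brainstem, thalamus and hypothalamus, and SLC17A7 those of the cortex, the hippocampus and the cerebellar granule cells. SLC17A8 is found in mammals in scattered neurons that also release serotonin, acetylcholine or GABA, and in inner hair cells. In zebrafish, slc17a8 serves hair cells of the ear and lateral line.

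Each library held between 18081694 and 22805563 counts, and 3 counts were worth 0.132 to 0.174 CPM. Titled bold 2 held the fewest counts and also had the fewest genes with a count, 21872. CPM are counts scaled to a common library size by TMM, a scaling that removes differences in library composition. Intervals below are 95% exact intervals and cover counting error only. The tissue label was checked against marker genes. Of 15 general neuron genes with a mean of at least 1 CPM, snap25 was the highest at 4236 ± 737 CPM (SD, n = 6). Among Hox genes, markers of position in the hindbrain and behind it, 0 of 41 reached 1 CPM, and 25 had no read. Many of the 41 mark positions behind the hindbrain, so these counts do not bear on the hindbrain alone. The highest members were hoxa2 with 42 reads and hoxa2b with 24 reads in all libraries together. The glycine transporter gene slc6a5 had 26 reads in all libraries together, the choline acetyltransferase gene chat had 1, and the hindbrain factor gene phox2a had 0. These markers of hindbrain neurons were thus at or near 0, but other genes of the lists that hold them were well counted. A mean of at least 1 CPM was reached by 7 of 8 inhibitory neuron genes and 2 of 8 cholinergic neuron genes. It was also reached by 10 of 23 factor genes of excitatory neurons. Among these, isl1 of the cholinergic list had 26.0 ± 4.80 CPM and the excitatory factor gene lmx1al had 46.9 ± 19.5 CPM (SD, n = 6). gabra6b, a gene of cerebellar granule cells, had 381 ± 30.6 CPM (SD, n = 6).

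The 3 paralogs were used very unequally. Over all libraries slc17a6b had 18417 reads, slc17a8 had 40 and slc17a7a had 9. That is 99.7%, 0.217% and 0.0487% of the 18466 reads assigned to the 3 genes. Any further paralog, such as one under an identifier without a symbol, is not in this sum. By mean CPM, slc17a6b ranked 1279 among all genes, slc17a8 ranked 20374 and slc17a7a ranked 22095, while 806 genes had no read at all. slc17a6b passed the filter on low counts, and the other two did not.

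Read counts of slc17a6b were 4271, 1848 and 2913 in titled bold 1, 2 and 3, and 4029, 2768 and 2588 in titled shy 1, 2 and 3. Those of slc17a8 were 7, 2 and 6 in the libraries titled bold, and 11, 6 and 8 in those titled shy. Those of slc17a7a were 6, 1 and 2 in the libraries titled bold, and 0 in each library titled shy. slc17a6b was thus the highest of the 3 in every library, and slc17a8 was above slc17a7a in every library, by 1 read in titled bold 1 and in titled bold 2.

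**Figure D1:**
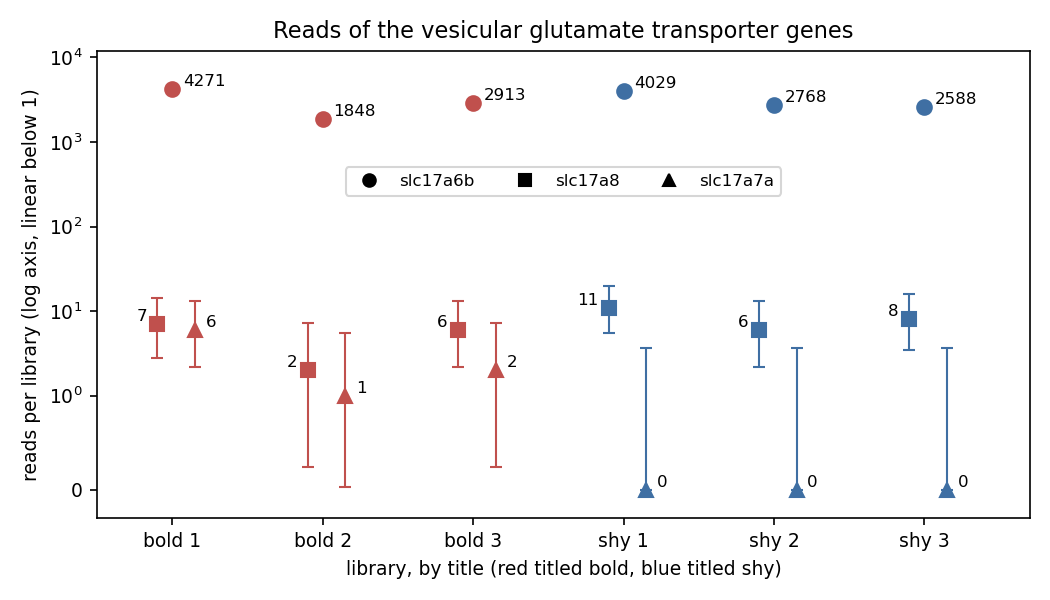
Reads per library (log axis, linear below 1) of slc17a6b (circles), slc17a8 (squares) and slc17a7a (triangles), with libraries titled bold in red and titled shy in blue; bars are 95% Poisson intervals. slc17a6b lies between 1848 and 4271 reads in every library, while the other two genes never pass 11.

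Within a library, the log2 ratio of slc17a6b to slc17a8 reads was 8.82 ± 0.47 (SD, n = 6) and lay between 8.25 and 9.53. It was above 0 in 6 of 6 libraries, and in the exact two-sided sign-flip permutation test only 2 of 64 sign patterns were as extreme. This is the smallest p that 6 libraries allow, and it is below 0.05. It reads only that the order held in 6 of 6 libraries, which the counts already show. Benjamini-Hochberg adjustment over the 3 pairs of members could not change it, since all 3 gave the same p. In the libraries titled shy, where slc17a7a had no read, slc17a6b reads were 1343-fold, 923-fold and 863-fold above a floor of 3 counts. The ratios of slc17a6b and slc17a8 to slc17a7a are not read as sizes, since the 0.5 reads added to each count set them where slc17a7a was at 0. Their test gave the same p, which in this design reads only that the order held in 6 of 6 libraries. The order of slc17a8 and slc17a7a rested on few reads. Their Poisson intervals overlapped in 5 of the libraries and were apart in titled shy 1, at 5.49 to 19.7 reads for slc17a8 and 0 to 3.69 for slc17a7a. Transcript lengths were not used here, so these ratios compare reads and not molecules.

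Genes beside the members in the RefSeq order were counted in the same files. bmal2, the clock gene next to slc17a8, had 54.2 ± 2.22 CPM (SD, n = 6), and zgc:55558, next to slc17a7a, had 10.96 ± 2.63 CPM. On their other sides, nr1h4 next to slc17a8 had 2 reads and slc6a16a next to slc17a7a had 90 reads in all libraries together, so low and well counted genes both lay beside these members. One annotated non-coding gene, LOC109625188, overlaps slc17a6b in that assembly and had 6 reads in all libraries together. The strand setting of the counting is not given in the sources used here, so reads of this overlapping gene and of slc17a6b cannot be told apart with certainty.

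slc17a6b, the highest of the 3 members in these libraries, differed more between libraries of one title than between the titles. Its level was 204, 107 and 145 CPM in titled bold 1, 2 and 3. It was 178, 122 and 122 CPM in titled shy 1, 2 and 3. Titled bold 1 was the highest and titled bold 2 the lowest, so that the range of the libraries titled shy lay inside that of the libraries titled bold. The libraries numbered 1 were the highest of each title.

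The mean of the libraries titled bold was 152 ± 48.8 CPM and that of the libraries titled shy 141 ± 31.8 CPM (SD, n = 3 each). The log2 fold was 0.11 ± 0.24 (SE), with an adjusted p of 0.965 in edgeR's quasi-likelihood test with Benjamini-Hochberg adjustment over all 19755 tested genes. In that test 0 genes were called at an adjusted p under 0.05, which is 0% of those tested. An unadjusted edgeR p under 0.05 was reached by 690 genes, or 3.49%. The titled bold level was the higher one in 344 of them (1.74%) and the lower one in 346 (1.75%). The unadjusted edgeR p of slc17a6b was 0.645. DESeq2 called 13 genes, or 0.0638% of 20370, without slc17a6b, and limma-voom called 0. The direction rested on 1 library, since the log2 fold was -0.14 ± 0.20 without titled bold 1. Leaving out titled bold 2 gave 0.31 ± 0.21, titled shy 1 gave 0.32 ± 0.24, and titled shy 2 or 3 gave 0.02 ± 0.27 or 0.03 ± 0.27. In bulk RNA, fewer glutamatergic neurons and less slc17a6b RNA per neuron cannot be told apart.

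**Figure D2:**
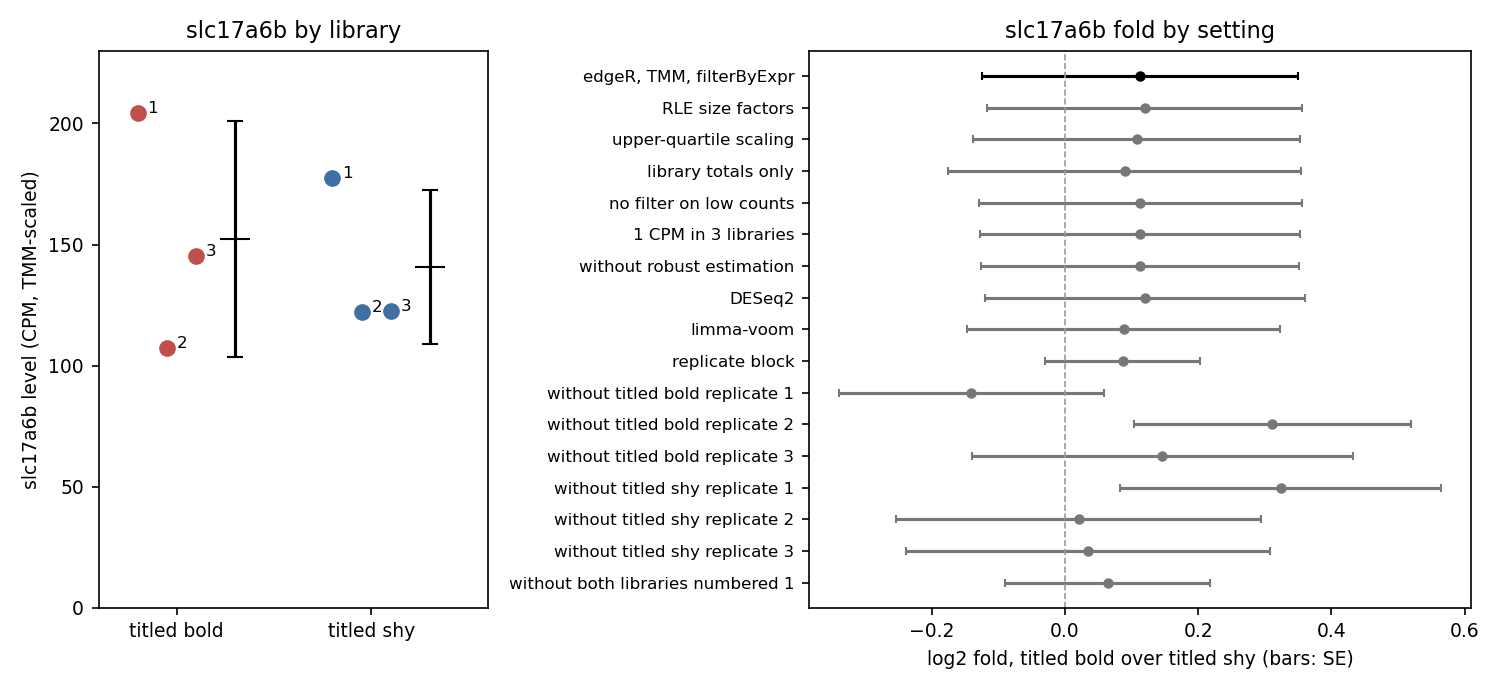
Left, slc17a6b level in CPM by title group, with replicate numbers beside the points and the mean ± SD beside each group. Right, its log2 fold of titled bold over titled shy with SE bars under each setting; the estimate of 0.11 becomes -0.14 without titled bold replicate 1.

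The spread of slc17a6b was wide for a gene of its level. Its coefficient of variation over 6 libraries was 25.5%, against a median of 10.1% over the 2482 tested genes within 2-fold of its mean CPM. It was above 96.2% of them. Within title groups it was 28.1%, against a median of 9.93%. Counting error was small beside this, since the 95% Poisson interval was 198 to 210 CPM in titled bold 1 and 102 to 112 CPM in titled bold 2.

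Set against inhibitory and general neuron genes within each library, a comparison added after the data were seen, slc17a6b gave no separation of the titles. Its log2 ratio to slc32a1, which loads GABA and glycine into vesicles, was 0.76 ± 0.28 in libraries titled bold and 0.48 ± 0.42 in libraries titled shy (SD, n = 3 each, exact permutation p = 0.6). Titled shy 3 stood lowest at -0.01 and titled bold 1 highest at 1.08. Its log2 ratio to the geometric mean of 15 general neuron genes was -0.57 ± 0.50 and -0.48 ± 0.14, with an exact permutation p of 1. Here titled bold 2 was lowest at -1.15, and the other 5 libraries lay between -0.64 and -0.25. Against the GABA-synthesis genes gad2 and gad1, the exact permutation p was 0.9 and 0.2. The smallest p that 3 libraries against 3 allow is 0.1.

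slc17a8, the paralog that serves hair cells in zebrafish, was near the limit of detection. Its level was 0.335, 0.116 and 0.299 CPM in titled bold 1, 2 and 3, and 0.485, 0.265 and 0.379 CPM in titled shy 1, 2 and 3. The titles overlapped, since titled shy 2 lay below titled bold 1 and 3. Means were 0.250 ± 0.117 and 0.376 ± 0.110 CPM (SD, n = 3 each, exact permutation p = 0.3, two-sided). The difference, titled bold minus titled shy, was -0.126 CPM, but -0.059 CPM with titled bold 2 left out and -0.072 CPM with titled shy 1 left out. Without a filter on low counts, edgeR gave slc17a8 a log2 fold of -0.56 ± 0.73, with 0.961 as its adjusted p. That fit covered 23589 genes, of which 0 were called and 774, or 3.28%, had an unadjusted p under 0.05.

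Its share of the reads of the 3 genes did separate the titles, by a small margin. The share was 0.163%, 0.108% and 0.205% in titled bold 1, 2 and 3, and 0.272%, 0.216% and 0.308% in titled shy 1, 2 and 3. The lowest share titled shy was above the highest titled bold, at 0.216% against 0.205%. These libraries, titled shy 2 and titled bold 3, each had 6 reads of slc17a8. The margin between them came from the total reads of the 3 genes, 2774 against 2921. Means were 0.159 ± 0.0488% and 0.266 ± 0.0463% (SD, n = 3 each), with an exact permutation p of 0.1, the smallest this design allows. For comparison, the titles did not overlap in CPM in 9.13% of the 23589 genes with a read. The CPM of slc17a8 itself did overlap, as given above. The exact binomial intervals of all 6 libraries overlapped, from 0.0131 to 0.390% in titled bold 2 to 0.133 to 0.606% in titled shy 3. Overlap of these intervals is not a test of a difference, and single pairs of libraries were not tested. The shares rest on 2 to 11 reads of slc17a8 per library.

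**Figure D3:**
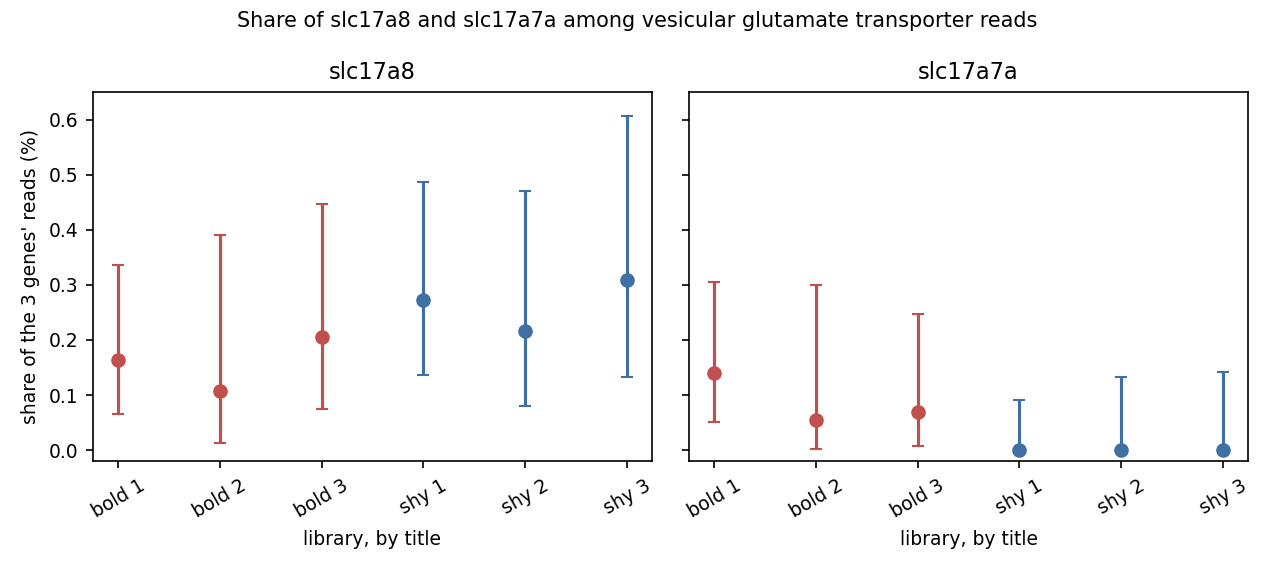
Share of slc17a8 (left) and slc17a7a (right) among the reads of the 3 vesicular glutamate transporter genes, in percent, for each library; bars are 95% exact binomial intervals. The slc17a8 points titled shy lie above those titled bold by 0.216% against 0.205% at the closest, with overlapping intervals, and slc17a7a has points above 0 in the libraries titled bold.

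Markers of cells known to use slc17a8 in other vertebrates were unevenly represented. Of 16 hair cell genes 6 averaged 1 CPM or more, led by otofa, the otoferlin gene of synaptic exocytosis, at 20.4 ± 6.68 CPM (SD, n = 6). The mechanotransduction gene tmc1 had 29 reads in all, and the hair cell factor pou4f3 had 88. Of 8 serotonergic neuron genes 5 averaged 1 CPM or more, led by gchfr, which regulates an enzyme of cofactor synthesis, at 56.9 ± 12.6 CPM. The serotonin-synthesis gene tph2 had 0.811 ± 0.583 CPM. A serotonin reuptake gene, slc6a4, named after its values were seen, had 9.37 ± 0.479 CPM titled bold and 5.91 ± 0.265 CPM titled shy (SD, n = 3 each). It was the 1 gene of this list with an unadjusted edgeR p under 0.05, and its log2 fold was 0.66 ± 0.19 (adjusted p = 0.955, not called). The duplicate slc6a4b went the other way, at 1.64 ± 1.90 CPM titled bold and 3.95 ± 3.72 CPM titled shy. Its log2 fold was -1.25 ± 1.27. Of 8 cholinergic neuron genes 2 reached 1 CPM, isl1 and mnx1, which also mark other neurons. Summed levels of these lists overlapped between the titles for hair cells (40.8 to 54.4 CPM titled bold, 39.2 to 49.3 CPM titled shy) and for serotonergic neurons (70.6 to 105 against 76.0 to 95.5 CPM). For cholinergic neurons the ranges were 22.5 to 30.3 and 28.9 to 32.8 CPM. Most of the serotonergic sum was gchfr, at 39.8 to 76.8 CPM titled bold and 52.1 to 61.6 CPM titled shy. The titles did not overlap in 2 of the 7 tested genes of the serotonergic list, against 9.53% of all tested genes. The part of these cells in the slc17a8 counts was not tested.

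slc17a7a, whose mammalian counterpart marks cortical neurons and cerebellar granule cells, was barely counted. It had 0.287, 0.0581 and 0.0997 CPM in titled bold 1, 2 and 3 and 0 in the 3 libraries titled shy. Titled bold 1 held 6 of the 9 reads. Counts of 0 in titled shy 1, 2 and 3 allow up to 0.163, 0.163 and 0.175 CPM by their Poisson intervals. The floor of 3 counts lay at 0.132, 0.133 and 0.142 CPM in these libraries. Only titled bold 1 exceeded its own floor, which was 0.143 CPM. Without titled bold 1, 3 reads were left over all libraries.

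The titles did not overlap in slc17a7a, with an exact permutation p of 0.1, the smallest possible. Groups that do not overlap were found in 9.13% of the 23589 genes with a read. Of the 126 genes with 9 reads in all, 15, or 11.9%, had them in 1 title only. Without a filter on low counts, edgeR gave slc17a7a an unadjusted p of 0.0281 and an adjusted p of 0.961. DESeq2 gave it an unadjusted p of 0.0912. In contrast with slc17a7a, most genes of the granule cell list were well counted, with 15 of 21 at a mean of at least 1 CPM. Those below it included gabra6a, etv1 and pax6, with 48, 39 and 26 reads in all libraries together. The list is not exclusive to these cells, since neurod1 is also in the list of excitatory neuron factors given below. The summed level of the granule cell list was 991 to 1112 CPM for titled bold and 907 to 1023 CPM for titled shy. Of the 16 tested, 13 were above 0 in log2 fold, against 48.3% of all tested genes. An unadjusted edgeR p under 0.05 was reached by 2, both higher in libraries titled bold, against 1.74% of all tested genes in that direction, and 0 were called. The part of granule cells in the slc17a7a counts was not tested. Photoreceptor genes, checked because the retina uses SLC17A7 in mammals, had 1 of 12 members at 1 CPM or more, and rho and crx had 4 and 0 reads.

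Transporters that load other transmitters were spread over a wide range. In the order of mean CPM, which is not per length, slc17a6b at 146.5 ± 37.4 CPM was followed by slc32a1 at 94.7 ± 19.8 CPM (SD, n = 6). These neighbours were within each other's spread in single libraries, since slc32a1 had 123 CPM in titled shy 3 and slc17a6b had 122 CPM there. slc17a9, a relative of the same family that loads ATP, had 42.3, 15.3 and 16.6 CPM in titled bold 1, 2 and 3, and 12.6, 16.5 and 40.0 CPM in titled shy 1, 2 and 3. It was high in 1 library of each title, titled bold 1 and titled shy 3. slc17a5, whose product exports sialic acid from lysosomes, was steadier at 18.3 ± 2.72 CPM.

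Lower in the order, slc18b1, the vesicular polyamine transporter gene, had 7.17 ± 1.47 CPM. The vesicular monoamine transporter gene slc18a2 had 3.11 ± 2.37 CPM and ranged from 0.29 CPM in titled bold 2 to 7.14 CPM in titled shy 1. slc17a8 came next at 0.313 ± 0.123 CPM, at the same level as the vesicular acetylcholine transporter gene slc18a3a at 0.301 ± 0.224 CPM. slc17a7a at 0.0741 ± 0.112 CPM and slc18a3b, with 4 reads in all, closed the order. None of the 5 tested among the family relatives and other loaders was called between the titles by edgeR. The log2 fold was 0.14 ± 0.18 for slc17a5 and 0.11 ± 0.53 for slc17a9. It was -0.22 ± 0.20 for slc32a1, -0.96 ± 0.77 for slc18a2 and 0.01 ± 0.27 for slc18b1. None had an unadjusted p under 0.05.

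**Figure D4:**
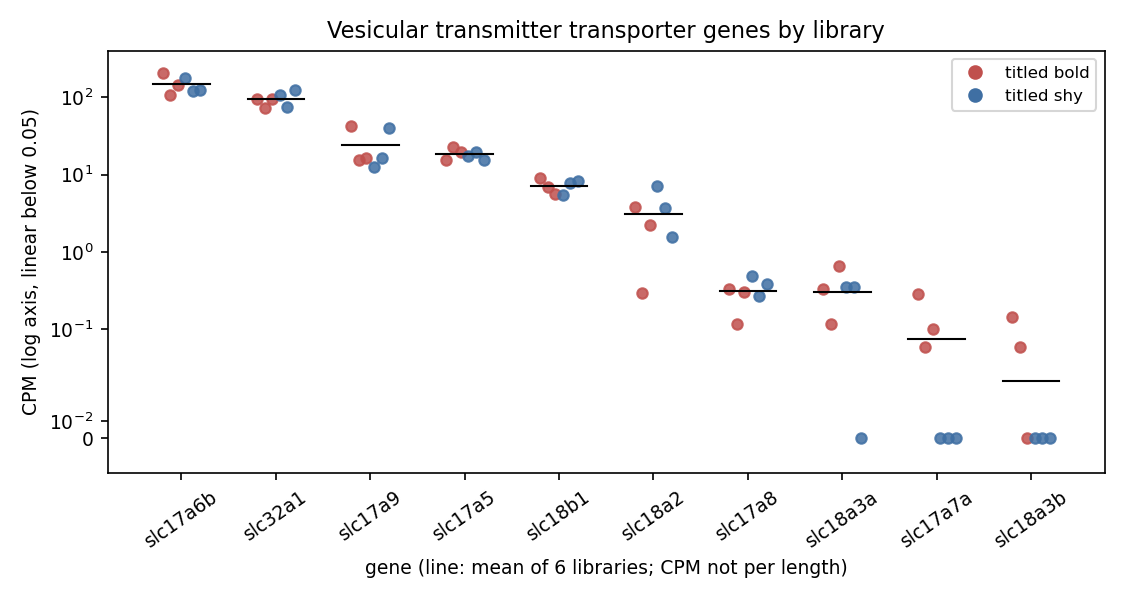
CPM per library (log axis, linear below 0.05) of the 3 vesicular glutamate transporter genes, their family relatives and the transporters that load other transmitters; red points are titled bold, blue titled shy, and lines are means of 6 libraries. slc17a6b and slc32a1 lie near 100 CPM, while slc17a8, slc18a3a, slc17a7a and slc18a3b stay below 1 CPM.

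The rest of the glutamate pathway was described by lists of genes for synthesis and recycling, uptake, receptors and neuron identity. Together they held 87 genes, of which 67 were tested and 0 called by edgeR at an adjusted p under 0.05. An unadjusted p under 0.05 was reached by 1, or 1.49%, lower in libraries titled bold, against 3.49% of all tested genes in either direction. Leaving out titled bold 1 raised the number to 10 of 68, or 14.7%, but the number over all genes rose as well, to 2393, or 12.0%. Leaving out titled shy 1 gave 4 of 69, or 5.80%, against 536 genes, or 2.69%, over all. Any other library left out gave 0. Titles did not overlap in 4 of the 67, or 5.97%, against 9.53% of all tested genes. The median log2 fold was -0.04, with 28 above 0 and 39 below, against a median of -0.01 over all tested genes.

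Among 17 tested genes of glutamate synthesis and recycling the median log2 fold was -0.04, with 7 above 0 and 10 below. Glutamine synthetase genes, which glia use to turn glutamate into glutamine, were the most abundant, with glula at 2131 ± 233 CPM and glulb at 378 ± 42.9 CPM (SD, n = 6). The glutaminase gene gls, which makes glutamate in nerve endings, had 71.8 ± 3.29 CPM titled bold and 60.1 ± 7.80 CPM titled shy. Its groups did not overlap and its log2 fold was 0.25 ± 0.12 (edgeR adjusted p = 0.955). The mitochondrial glutamate carrier gene slc25a18 had 14.4 ± 3.89 and 18.6 ± 1.22 CPM, a log2 fold of -0.37 ± 0.21.

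Uptake genes, which clear glutamate from the synapse, had 4 tested of 9 matched, with a median log2 fold of -0.41, 1 above 0 and 3 below. The glial transporter gene slc1a2 had 503, 99.9 and 335 CPM in titled bold 1, 2 and 3, and 380, 415 and 593 CPM in titled shy 1, 2 and 3. Titled bold 2 stood far below the others. Its log2 fold was -0.56 ± 0.51. The member with an unadjusted edgeR p under 0.05 was slc1a9, at 2.48 ± 0.474 CPM titled bold and 4.03 ± 0.261 CPM titled shy, with an adjusted p of 0.955. slc1a1, a neuronal transporter gene in mammals, had 50.7 ± 4.12 and 46.0 ± 2.79 CPM.

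Ionotropic receptor genes, whose products open ion channels on binding glutamate, had 23 tested members, 6 above 0 and 17 below, with a median log2 fold of -0.16 and 0 called by edgeR. The AMPA receptor gene gria2 had 347 ± 57.8 CPM titled bold and 370 ± 11.1 CPM titled shy, and the NMDA receptor gene grin1a had 284 ± 112 and 353 ± 48.0 CPM. The smallest p-values were those of the NMDA receptor gene grin2bb, with a log2 fold of -0.48 ± 0.28, and the kainate receptor gene grik5, at -0.20 ± 0.12. For grin2bb the CPM was 151, 61.2 and 131 in titled bold 1, 2 and 3, and 166, 146 and 167 in titled shy 1, 2 and 3, so titled bold 2 was again low. Metabotropic receptor genes, coupled to G proteins, had 11 tested members, 7 above 0 and 4 below, with a median of 0.09. Among them grm5a had 532 ± 67.4 and 500 ± 85.9 CPM, and grm2b 288 ± 42.2 and 290 ± 35.3 CPM. grm8b had 7.41 ± 3.63 and 5.31 ± 2.12 CPM.

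Transcription factor genes of excitatory neurons had 12 tested of 23 matched, 7 above 0 and 5 below, with a median log2 fold of 0.01. The most abundant were lmx1al at 46.9 ± 19.5 CPM and lmx1b at 21.8 ± 8.45 CPM (SD, n = 6), and those with the smallest p were lhx2, with a log2 fold of -0.56 ± 0.37, and barhl2, at 0.21 ± 0.22. The excitatory factor genes tlx3, evx1 and evx2, active in mammalian hindbrain or spinal cord, had 4, 0 and 0 reads.

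Among genes of forebrain excitatory neurons, neurod6 and neurod2 were high in the libraries numbered 1 of both titles, an observation made after their values were seen. neurod6, a gene of pallial excitatory neurons in mammals, had 23.5, 1.16 and 0.399 CPM in titled bold 1, 2 and 3. It had 20.7, 0.265 and 0.0946 CPM in titled shy 1, 2 and 3. Its relative neurod2 had 24.9, 6.80 and 0.897 CPM, and 20.9, 0.574 and 0.331 CPM, in the same order. The libraries numbered 1 were also the 2 highest in slc17a6b. The pallial factor genes tbr1 and eomes, with only 68 and 53 reads in all libraries together, did not share this pattern. tbr1 had 0.956, 0.465 and 0.299 CPM titled bold and 0.441, 0.354 and 0.757 CPM titled shy. eomes had 1.86, 0 and 0.0997 CPM titled bold and 0, 0.265 and 0.284 CPM titled shy. Both were thus highest in titled bold 1, and neither was high in titled shy 1. neurod1, which granule cells use as well, had 8.12, 10.98 and 0.249 CPM titled bold and 7.58, 0.530 and 0.426 CPM titled shy. It was high in titled bold 2, where slc17a6b was lowest. Over 6 libraries the Pearson r with slc17a6b was 0.82 for neurod6 and 0.66 for neurod2, with a Spearman rho of 0.6 for both. Without both libraries numbered 1 the r turned to -0.41 and -0.57, so the positive r rested on those libraries. The part of forebrain cells in the slc17a6b level was not tested.

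By a fixed rule, the 5 genes most like slc17a6b in pattern were those with the highest Pearson r of log2 CPM over the 6 libraries among 13586 genes with a symbol. They were lhfpl4a (r = 0.99), whose mammalian relative joins GABA-A receptors to their synaptic anchor, kif5a (0.99), a kinesin of axonal transport, kdm4ab (0.99), a histone demethylase gene, cpne5b (0.99), a copine gene, and znf367 (0.99), a zinc-finger gene. Their size of change differed widely. kif5a ranged from 14.7 CPM in titled bold 2 to 29.4 CPM in titled bold 1, much as slc17a6b did, while kdm4ab ranged from 34.4 to 37.3 CPM. A Pearson r of at least 0.9 was reached by 144 of these 13586 genes, and one of -0.9 or lower by 265. An r above 0.9 was thus not particular to the 5 named genes. Without the 2 libraries farthest from the median of slc17a6b, titled bold 1 and titled shy 1, the r of the 5 genes lay between 0.93 and 1.00. The 5 genes were picked on all 6 libraries, so this is not an independent check of the pattern.

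The patterns of the lists are descriptions over the same 6 libraries, which share depth and composition. Over all tested genes the median Pearson r with slc17a6b was 0.01. Ionotropic receptor genes had a median of 0.64, with 20 of 23 above 0, and 0.42 without titled bold 1 and titled shy 1. In this list grik4 had r = 0.88 and grin2da r = 0.82, while gria1a had r = -0.57. Excitatory neuron factors had a median of 0.58, which was 0.09 without those libraries. General neuron genes had a median of 0.10, which turned to -0.40 without those libraries, and inhibitory neuron genes had 0.17, then 0.29.

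Most oligodendrocyte genes, which make myelin, ran against slc17a6b. Their median r was -0.60, with 8 of 10 below 0, and -0.56 without titled bold 1 and titled shy 1. The r was -0.92 for the lineage factor gene olig2 and 0.19 for mpz. For cldnk it was 0.08, and 0.92 without those libraries. Astroglial genes also had a median r below 0, at -0.41 with 5 of 7 below 0, but 0.32 without those libraries. The summed level of the oligodendrocyte genes was 2137, 4207 and 2439 CPM in titled bold 1, 2 and 3. It was 2276, 2596 and 2210 CPM in titled shy 1, 2 and 3. Titled bold 2, the library with the least slc17a6b, had the highest oligodendrocyte sum. General neuron genes had their highest sum in the same library, at 12036 CPM. All 10 oligodendrocyte genes averaged 1 CPM or more, and their log2 folds had a median of 0.14, with 0 called by edgeR. The part of myelinating cells in the slc17a6b level was not tested.

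**Figure D5:**
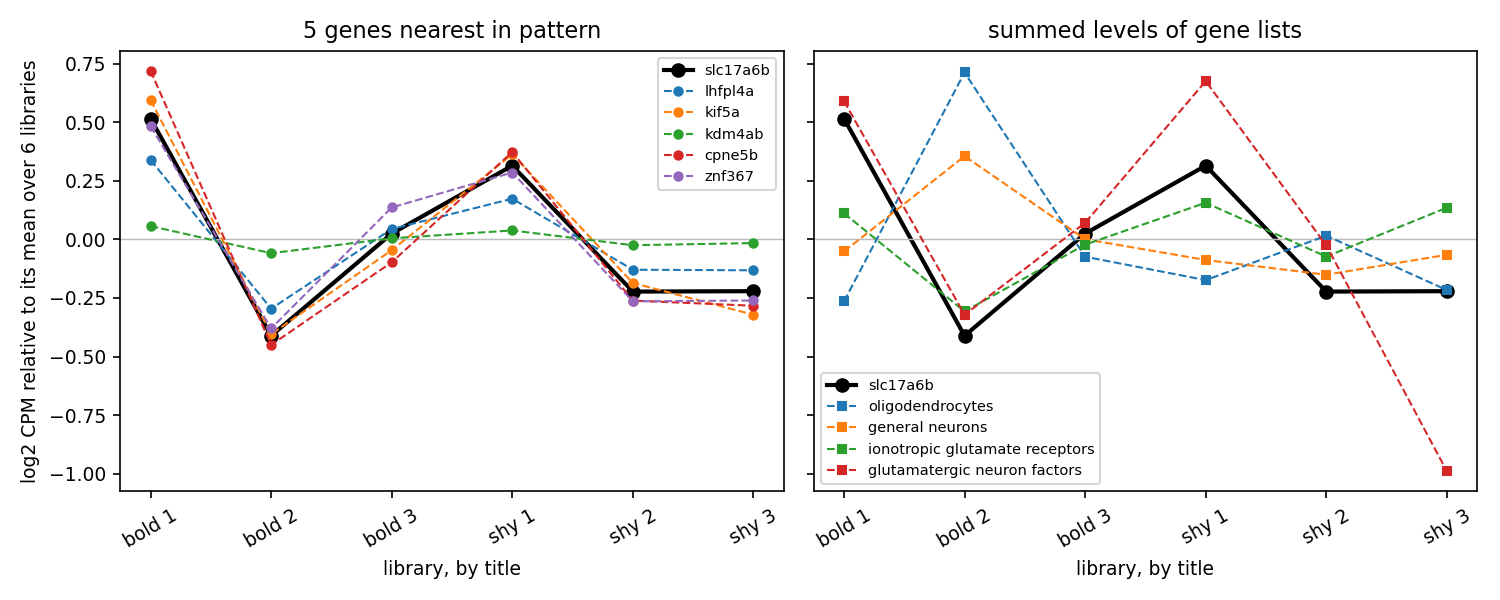
log2 CPM relative to the mean over 6 libraries, by library, for slc17a6b (black) beside the 5 genes nearest in pattern (left) and beside the summed levels of 4 gene lists (right). slc17a6b peaks in titled bold 1 and titled shy 1 and is lowest in titled bold 2, where the oligodendrocyte sum is highest at 4207 CPM.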

How the data were processed

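The authors deposited raw read counts for 24395 genes per library. A stranded mRNA kit and 100-bp paired ends were used, per the labels' protocols. HTSeq 0.11.1, TopHat2 2.0.11 and Trimmomatic 0.30 are listed in the submitters' processing notes. Genome build, annotation, strand setting and the handling of reads shared by paralogs were not given in the sources used here. Of 14730 LOC identifiers, 5666 received a symbol from RefSeq (ASM2471397v2), used for names and gene order only.

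Genes kept by filterByExpr were TMM-scaled and compared by the two-sided quasi-likelihood test of edgeR 4.0.16 in R 4.3.3. The threshold was an adjusted p of 0.05 (Benjamini-Hochberg). The common biological variation was 22.9%. Members below the filter, shares and ratios were tested by exact permutation over libraries. Alternatives used DESeq2 1.42.0, limma 3.58.1, other scalings and filters, single libraries left out and a replicate block. The edgeR step was tested on simulated counts. Plots used matplotlib 3.10.9.

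Members and lists were chosen with earlier results of these data known. Gene lists were matched by symbol, teleost duplicates included, and a hox list was added later. Named are the members, all family relatives and other vesicular loaders, per glutamate list the 2 genes with the smallest p and the 2 highest, and the 5 nearest in pattern. Some genes that this rule selects are not reported here. Others were chosen after their values were seen.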

Additional observations from a re-analysis of the deposited data

How the results depend on the processing

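The log2 fold of slc17a6b stayed above 0 and uncalled in 15 of 16 alternatives, between 0.02 and 0.32, with edgeR, DESeq2 or limma adjusted p-values between 0.790 and 1.00 over all 16. It was reversed without titled bold 1, at -0.14, where titled bold loses its highest library. With the replicate block it was 0.09 ± 0.12. Same-numbered libraries deviated together with r = 0.32, 0.14 and 0.08 for numbers 1, 2 and 3. Libraries of different numbers gave r between -0.22 and 0.08. Each titled bold library went most with the titled shy one of its number. From the other side this failed for number 3. Titled shy 3 had r = 0.084 with titled bold 2 and r = 0.080 with titled bold 3. The main fit used no block for the numbers, and whether they pair the libraries cannot be told from these values. DESeq2 called 13 genes, and all other alternatives called 0. The number of glutamate list genes with an unadjusted p under 0.05 was 3 with the replicate block and 6 without both libraries numbered 1, a setting added after the data were seen, and between 0 and 10 with 1 library left out. The number over all genes was 690, and 1160 with the replicate block, 2393 without titled bold 1 and 1355 without both libraries numbered 1. The cause was not tested. The log2 ratio of slc17a6b to slc17a8 was 8.68 to 8.94 with 1 library left out, that of slc17a6b to slc17a7a 10.92 to 11.64, and that of slc17a8 to slc17a7a 2.02 to 2.89. Averaged within replicate numbers (replicate block) they were 8.82, 11.26 and 2.44. The ratios to slc17a7a are set by the 0.5 added reads wherever it had no read. These smaller designs allow no exact p below 0.0625 and 0.25. The slc17a8 difference stayed below 0, between -0.182 and -0.059 CPM, and that of slc17a7a, at 0 in all libraries titled shy, could not turn. Of the 5 genes nearest in pattern, 2 had a Spearman rho of 1, as did 45 genes in all. Ratios per coding length were not run, since lengths were not used here. With 9 and 40 reads in all, depth limits slc17a7a and slc17a8 to statements on detection.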

Other observations

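Lists of other cell types, described by counts, held 0 genes called by edgeR between the titles. Inhibitory neuron genes, led by gad2, had 7 tested members with a median log2 fold of -0.02 and summed levels of 1016 to 1182 CPM titled bold and 921 to 1196 CPM titled shy. Purkinje cell genes, led by aldoc, had 13 tested members with a median of -0.02. Astroglial genes, led by glula, had 7 with a median of -0.17, microglial genes, led by cd74, had 8 with a median of -0.26, and erythrocyte genes had 7 with a median of 0.26. General neuron genes had 15 with a median of 0.21, and their summed level in titled bold 2 was 12036 CPM, against 8474 to 9413 CPM in the other 5 libraries.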
